A study of Homo sapiens with 12 samples.

Results

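The genes described here are 10 regulators of the passage from G1 into S phase: the D-type cyclins CCND1 and CCND3, the E-type cyclins CCNE1 and CCNE2, cyclin A2 (CCNA2), the kinases CDK2, CDK4 and CDK6, the ubiquitin ligase subunit SKP2 and the transcription factor E2F1. Every probe that the platform annotation gives to 1 of these symbols alone was taken, which made 14 probes among the 30113 probes with 1 symbol. Of the 14, 12 probes of 9 genes lay above the background floor (6.77 on the log2 signal scale) on at least 3 arrays and were tested with 15583 probes in all. The other 2 are the single CCNE2 probe (ILMN_1651260, above the floor on 2 of 12 arrays) and 1 of the pair of CCNE1 probes (ILMN_1733419, above it on 0). RNA came from MDA-MB-231 and BT-549, both established human lines of triple-negative breast cancer. Each line was exposed for 48 h to 10 uM everolimus, a rapamycin analogue that inhibits the growth kinase mTOR, or to DMSO, its solvent. That makes 4 groups of 3 Illumina bead arrays.

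Entry into S phase is driven by cyclins bound to their kinases. Cyclin D with CDK4 or CDK6 begins the phosphorylation of the retinoblastoma protein, which frees E2F factors to switch on cyclin E, cyclin A and the genes of DNA replication, and cyclin E and then cyclin A activate CDK2. SKP2 recognises proteins for an SCF ubiquitin ligase, which destroys the CDK2 inhibitor CDKN1B among others. The mTOR kinase is known for supporting the translation of cyclin D, which these RNA measurements do not read.

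Promoter sequence shows how differently these genes are built. RefSeq (GRCh38.p14) promoter windows, from 250 bases before to 50 after a start site, were at hand for 7 of the 10 genes, as 10 windows. They were searched on both strands for an E2F site (TTTNNCGC), a CRE (TGACGTCA), a CCAAT box (CCAAT), a GC box (GGGCGG), an E-box (CACGTG) and a CHR (TTTGAA). The 250 bases before the start are printed for 3 genes, in capitals where the letters of a motif were found. SKP2 is shown for its lower signal under everolimus, CCNA2 for its CRE and CCAAT letters, and E2F1 as the gene whose own promoter holds E2F letters. The stretches are chr5:36151861-36152110 (plus strand), chr4:121823884-121824133 (minus strand) and chr20:33686386-33686635 (minus strand).
SKP2: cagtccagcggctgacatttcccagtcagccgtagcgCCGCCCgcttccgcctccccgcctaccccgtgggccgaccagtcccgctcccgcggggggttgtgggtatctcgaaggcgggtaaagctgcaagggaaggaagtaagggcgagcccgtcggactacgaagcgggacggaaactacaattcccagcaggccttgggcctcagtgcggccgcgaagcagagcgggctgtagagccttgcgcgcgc
CCNA2: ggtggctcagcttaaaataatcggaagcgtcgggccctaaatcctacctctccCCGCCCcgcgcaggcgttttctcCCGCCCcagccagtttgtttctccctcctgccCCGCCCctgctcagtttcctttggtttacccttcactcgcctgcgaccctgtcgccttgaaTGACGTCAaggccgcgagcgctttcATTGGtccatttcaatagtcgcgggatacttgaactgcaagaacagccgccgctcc
E2F1: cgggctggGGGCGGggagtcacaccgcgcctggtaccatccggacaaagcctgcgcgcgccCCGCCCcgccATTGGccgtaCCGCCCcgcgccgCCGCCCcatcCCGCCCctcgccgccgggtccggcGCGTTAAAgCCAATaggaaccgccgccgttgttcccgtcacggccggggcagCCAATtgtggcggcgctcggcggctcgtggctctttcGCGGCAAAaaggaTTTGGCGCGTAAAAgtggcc
The SKP2 window held 1 GC box and none of the other 5 motifs. GC boxes stood in 45% of all 35116 windows of this length. The CCNA2 window held 1 CRE, 1 CCAAT box and 3 GC boxes, against a CRE in 1.85% and a CCAAT box in 34.6% of all windows. E2F letters occurred in 1 of the 10 windows, that of E2F1, which held 4 partly overlapping matches, beside 6.89% of all windows. The CDK4 window had 3 E-boxes and 1 of the CDK6 windows 1, a motif in 7.26% of windows. CHR letters, in 15.2% of all windows, were in none of the 10. A match or its absence is a description of the letters in these windows and says nothing of binding.

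Between 12858 and 13382 of the 15583 tested probes lay above the floor on each array. The replicate 1 array stood furthest from its group mean in all 4 groups. The SD of its deviations was 0.223 to 0.379 log2, the largest in BT-549 everolimus, against 0.083 to 0.221 on the other 8 arrays. Whether the 3 arrays of a group come from separate cultures is not stated in the labels, so each p-value measures the spread between these arrays, which may be technical, and 3 arrays a group limit the precision. All signals and differences below are log2 values of single probes, ± is the SD over n = 3 arrays, and adjusted p-values come from limma with the Benjamini-Hochberg method over the 15583 probes. A probe was called at an adjusted p under 0.05.

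SKP2, the substrate receptor of the ligase, had on its brightest probe the lowest everolimus difference of the 12 probes in both lines. On this probe (ILMN_1665538, transcript NM_032637) the BT-549 signals were 9.85, 10.22 and 10.49 in DMSO and 8.89, 8.88 and 8.82 in everolimus. SKP2 thus fell in BT-549 from 10.19 ± 0.32 to 8.86 ± 0.04, 2.50-fold (log2 difference -1.32, 95% interval -1.76 to -0.89, adjusted p = 0.00231). All 3 everolimus arrays lay below all DMSO arrays and within a narrow band. Because the RNA is bulk, fewer cells that carry SKP2 RNA and less of it per cell cannot be told apart.

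In MDA-MB-231 the same SKP2 probe read 9.74, 9.44 and 9.61 in DMSO and 9.05, 8.66 and 8.27 in everolimus. These groups did not overlap either, but the difference of -0.94 (95% interval -1.37 to -0.50) missed the threshold (limma adjusted p = 0.0954). It passed with the replicate number as a block (0.0484) and without MDA-MB-231 everolimus replicate 1 (-1.13, 0.045), the array with the highest everolimus signal. Those fits called 178 and 43 of all probes in MDA-MB-231, against 16 otherwise. The block rests on correlations in the data and not on the labels. On this SKP2 probe the test of unequal effects was not passed (BT-549 minus MDA-MB-231 difference of effects -0.39, 95% interval -1.0 to 0.23, adjusted p = 0.522). Averaged over both lines SKP2 fell by 1.13 on this probe (2.19-fold, adjusted p = 0.00119), called with any 1 of the 12 arrays left out.

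A second SKP2 probe (ILMN_1791002, transcript NM_005983) is dimmer. In BT-549 it read 7.65, 7.77 and 7.85 in DMSO and 6.59, 6.74 and 6.80 in everolimus, where 1 of 3 arrays lay above the floor. It fell there (measured log2 difference -1.05, adjusted p = 0.000826, called in 12 of 12 fits with 1 array left out), and no array of one group reached the other. Since the everolimus mean of 6.71 lies under the floor, the mean SKP2 signal was at least 1.97-fold lower. In MDA-MB-231 it read 7.15, 6.81 and 6.76 in DMSO and 6.67, 6.61 and 6.45 in everolimus, all 3 of the latter under the floor. The mean there was at least 1.10-fold lower, a bound without the spread between arrays. The measured difference was not called (95% interval -0.60 to -0.06, limma adjusted p = 0.343). The measured effects on this SKP2 probe differed between the lines by -0.72 (95% interval -1.10 to -0.34), which missed the threshold (limma adjusted p = 0.0857). That difference was called without MDA-MB-231 DMSO replicate 1 (-0.84, 0.0349), without BT-549 everolimus replicate 1 (-0.66, 0.0412), without the 4 replicate 1 arrays (-0.78, 0.00539), with array weights (-0.73, 0.00134) and with the replicate block (0.0219). In that order these settings called 287, 1681, 3173, 4733 and 1148 of all 15583 probes for this contrast. With all 12 arrays and no such change 120 were called, so each of these settings called more probes in general. Whether this SKP2 difference is called depends on the setting. The measured difference itself stayed between -0.84 and -0.64 with 1 array left out. The everolimus values of this probe lie at or under the floor in both lines, so the size of the difference is uncertain. The third SKP2 probe (ILMN_1801391, also NM_005983) reached the floor on few arrays. It read 6.92, 7.10 and 6.67 in BT-549 DMSO and 6.59 to 6.63 in everolimus, a mean at least 1.09-fold lower. The measured difference was not called (95% interval -0.53 to -0.05, limma adjusted p = 0.0963). On all MDA-MB-231 arrays this probe lay between 6.57 and 6.77.

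In order of level, the brightest SKP2 probe stood highest in BT-549 DMSO (10.19), then in MDA-MB-231 DMSO (9.60 ± 0.15), BT-549 everolimus (8.86) and MDA-MB-231 everolimus (8.66 ± 0.39). The last pair did not differ beyond its spread: the 3 BT-549 everolimus arrays lay inside the range of the MDA-MB-231 ones.

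CDK2, the kinase that cyclins E and A activate, changed in one line and showed almost no difference in the other. On its brighter probe (ILMN_1665559) BT-549 read 9.32, 9.37 and 9.36 in DMSO and 8.23, 8.16 and 8.11 in everolimus. The arrays of each group lay close together and a gap of over 1 unit separated the groups. CDK2 fell in BT-549 by 1.18 (95% interval -1.42 to -0.95, 2.27-fold, adjusted p = 0.00034), and it was called with any 1 array left out (highest adjusted p = 0.00311).

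In MDA-MB-231 this CDK2 probe read 9.29, 9.44 and 9.04 in DMSO and 9.05, 9.21 and 9.20 in everolimus, with overlap. The difference was -0.10, with a 95% interval of -0.34 to 0.13 (limma adjusted p = 0.859). The effects differed between the lines by -1.08 (95% interval -1.41 to -0.75, adjusted p = 0.0219), the 1 member probe called in that test. This call is close to the threshold. It was kept in 4 of 12 fits with 1 array left out and lost without MDA-MB-231 DMSO replicate 2 or 3, MDA-MB-231 everolimus replicate 2 or 3, BT-549 DMSO replicate 1 or 2, or BT-549 everolimus replicate 2 or 3 (adjusted p = 0.0527 to 0.0959), while the CDK2 difference stayed between -1.17 and -0.97. It was also lost with the background peak subtracted (0.075) and with a trended and robust prior (0.0552).

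The dim CDK2 probe (ILMN_1653443) was near the floor. It read 6.91, 6.95 and 6.79 in BT-549 DMSO and 6.58, 6.53 and 6.66 in everolimus, all under the floor. That is at least 1.08-fold lower, with no overlap of the groups, and was not called (adjusted p = 0.119). In MDA-MB-231 it ranged from 6.65 to 7.03 in DMSO and from 6.76 to 7.03 in everolimus. In order of level the brighter CDK2 probe stood at 9.35 ± 0.03 in BT-549 DMSO, 9.26 ± 0.20 in MDA-MB-231 DMSO and 9.15 ± 0.09 in MDA-MB-231 everolimus. The MDA-MB-231 DMSO arrays overlapped both neighbours, while all BT-549 DMSO arrays lay above all MDA-MB-231 everolimus arrays, a pair that was not tested. BT-549 everolimus (8.17 ± 0.06) lay below all of them.

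**Figure D1:**
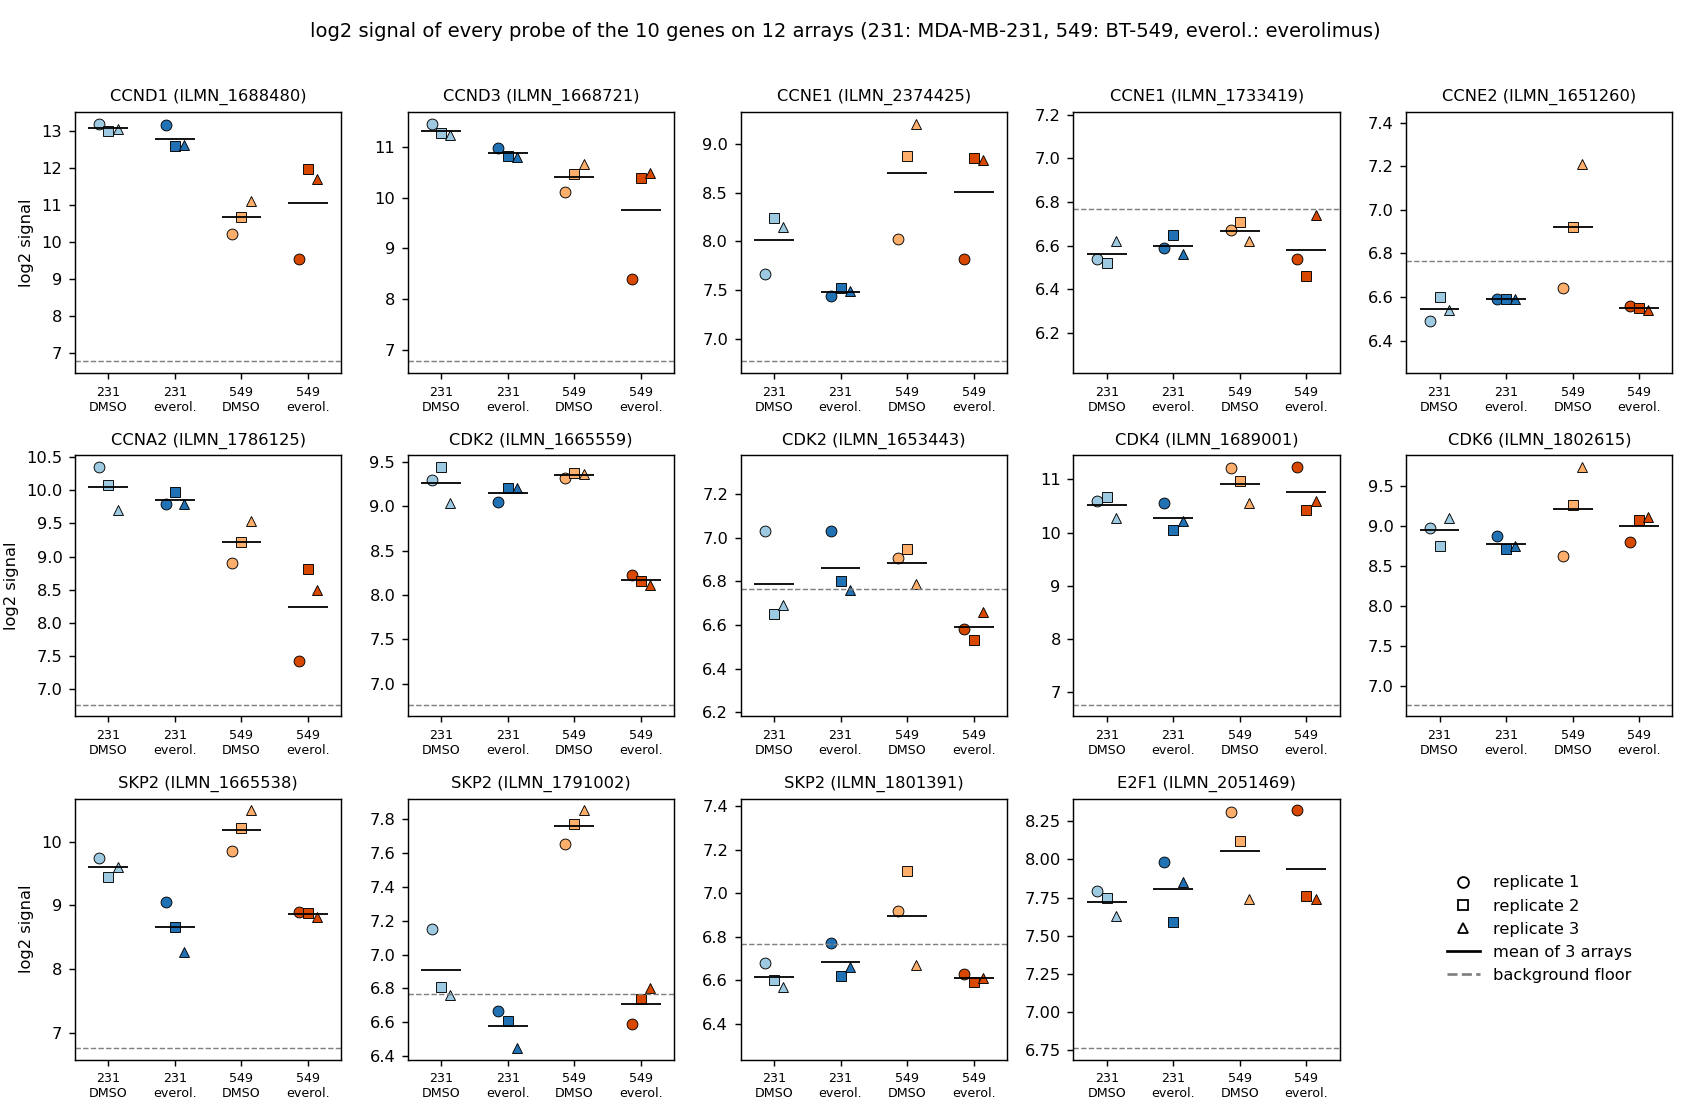
Each panel is 1 probe, with the log2 signal of all 12 arrays on the vertical axis and the 4 groups on the horizontal axis. Circles, squares and triangles are replicates 1, 2 and 3, bars are means of 3 arrays and the dashed line is the background floor of 6.77. The SKP2 probe ILMN_1665538 is lower under everolimus in both lines, CDK2 ILMN_1665559 only drops below 9 in BT-549 everolimus, and the replicate 1 array lies far down in BT-549 everolimus for CCND1, CCND3 and CCNA2.

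Among the D-type cyclins, the growth-signal partners of CDK4 and CDK6, neither tested gene was called in either line. CCND1 (ILMN_1688480) read 10.21, 10.68 and 11.10 in BT-549 DMSO and 9.53, 11.96 and 11.69 in everolimus. Replicate 1 lay below every DMSO array and the other 2 above them all. CCND1 differed there by 0.40 (95% interval -0.73 to 1.52, adjusted p = 0.652), but by 1.16 without BT-549 everolimus replicate 1 (0.00672) and by -0.05 without BT-549 everolimus replicate 2, so its sign in BT-549 depends on 1 array. In MDA-MB-231 CCND1 read 13.19, 12.99 and 13.05 in DMSO and 13.17, 12.59 and 12.62 in everolimus (difference -0.28, adjusted p = 0.943).

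CCND3 (ILMN_1668721) read 11.46, 11.28 and 11.23 in MDA-MB-231 DMSO and 10.99, 10.83 and 10.81 in everolimus. Those groups did not overlap, and the difference of -0.45 was not called (95% interval -1.40 to 0.51, limma adjusted p = 0.841). In BT-549 CCND3 read 10.12, 10.46 and 10.66 in DMSO and 8.39, 10.39 and 10.48 in everolimus. Its difference of -0.66 (adjusted p = 0.329) came to 0.02 without BT-549 everolimus replicate 1. The wide spread of that group enters the shared estimate used for MDA-MB-231 as well. Without the 4 replicate 1 arrays CCND3 was called in MDA-MB-231 (-0.44, adjusted p = 0.04) and not in BT-549 (-0.12, 0.381). That fit called 976 of all probes in MDA-MB-231, against 16 with all 12 arrays.

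The E-type cyclins are the first partners of CDK2. CCNE1 on its bright probe (ILMN_2374425) read 7.67, 8.24 and 8.15 in MDA-MB-231 DMSO and 7.44, 7.52 and 7.49 in everolimus, so the groups did not overlap. The difference of -0.54 (95% interval -1.25 to 0.18) was not called (limma adjusted p = 0.641). It was called without the 4 replicate 1 arrays (-0.69, 0.0131), where 976 of all probes were called in MDA-MB-231. In BT-549 CCNE1 read 8.03, 8.88 and 9.21 in DMSO and 7.82, 8.86 and 8.84 in everolimus, with overlap (-0.20, adjusted p = 0.728). The second CCNE1 probe stayed between 6.46 and 6.74 on all 12 arrays, under the floor. CCNE2 (ILMN_1651260) read 6.64, 6.92 and 7.21 in BT-549 DMSO and 6.54 to 6.56 in BT-549 everolimus, so 2 DMSO arrays alone rose above the floor. Its group mean was at least 1.11-fold lower in everolimus, and in MDA-MB-231 it lay between 6.49 and 6.60 on all 6 arrays. In the alternative fit with no floor CCNE2 was not called in BT-549 (-0.37, limma adjusted p = 0.0749), but it was called as higher in BT-549 DMSO than in MDA-MB-231 DMSO (0.38, 0.0481).

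Cyclin A2 takes over CDK2 during S phase. CCNA2 (ILMN_1786125) read 8.91, 9.22 and 9.53 in BT-549 DMSO and 7.42, 8.81 and 8.50 in everolimus. Every everolimus array was lower, and the difference of -0.98 (95% interval -1.66 to -0.29, 1.97-fold) lay just outside the threshold (limma adjusted p = 0.0529). CCNA2 was called with the stricter floor (0.043), with equal medians of the tested probes (0.0483), with a trended and robust prior (0.0446), without BT-549 everolimus replicate 2 (-1.26, 0.0293) and without the 4 replicate 1 arrays (-0.72, 0.00721). In that order these settings called 2430 (of 11791), 2655, 2650, 1615 and 5938 (each of 15583) probes in BT-549. With no such change 2656 of 15583 were called. Of the 12 fits with 1 array left out, 1 called CCNA2. The CCNA2 difference was -0.56 without BT-549 everolimus replicate 1 (no call). In MDA-MB-231 CCNA2 read 10.35, 10.08 and 9.71 in DMSO and 9.79, 9.98 and 9.79 in everolimus (-0.19, adjusted p = 0.935), with overlap.

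The kinases of cyclin D and the transcription factor at the end of the pathway gave no call in either line. CDK4 (ILMN_1689001) went from 10.51 ± 0.21 to 10.27 ± 0.26 in MDA-MB-231 (difference -0.24, 95% interval -0.75 to 0.27, adjusted p = 0.84) and from 10.91 ± 0.33 to 10.75 ± 0.42 in BT-549 (-0.15, 0.707). CDK6 (ILMN_1802615) had 8.94 ± 0.18 and 8.78 ± 0.08 in MDA-MB-231 (-0.16, adjusted p = 0.918) and 9.20 ± 0.56 and 8.99 ± 0.17 in BT-549 (-0.21, 0.572). E2F1 (ILMN_2051469), the activator freed by the retinoblastoma protein, had 7.72 ± 0.08 and 7.81 ± 0.20 in MDA-MB-231 (0.08, adjusted p = 0.961) and 8.06 ± 0.29 and 7.94 ± 0.33 in BT-549 (-0.12, 0.722). The groups of all 3 genes overlapped in both lines. The intervals of CDK4, CDK6 and E2F1 reach at most 0.75 from 0, so changes as large as those of SKP2 and CDK2 in BT-549 lay outside them.

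**Figure D2:**
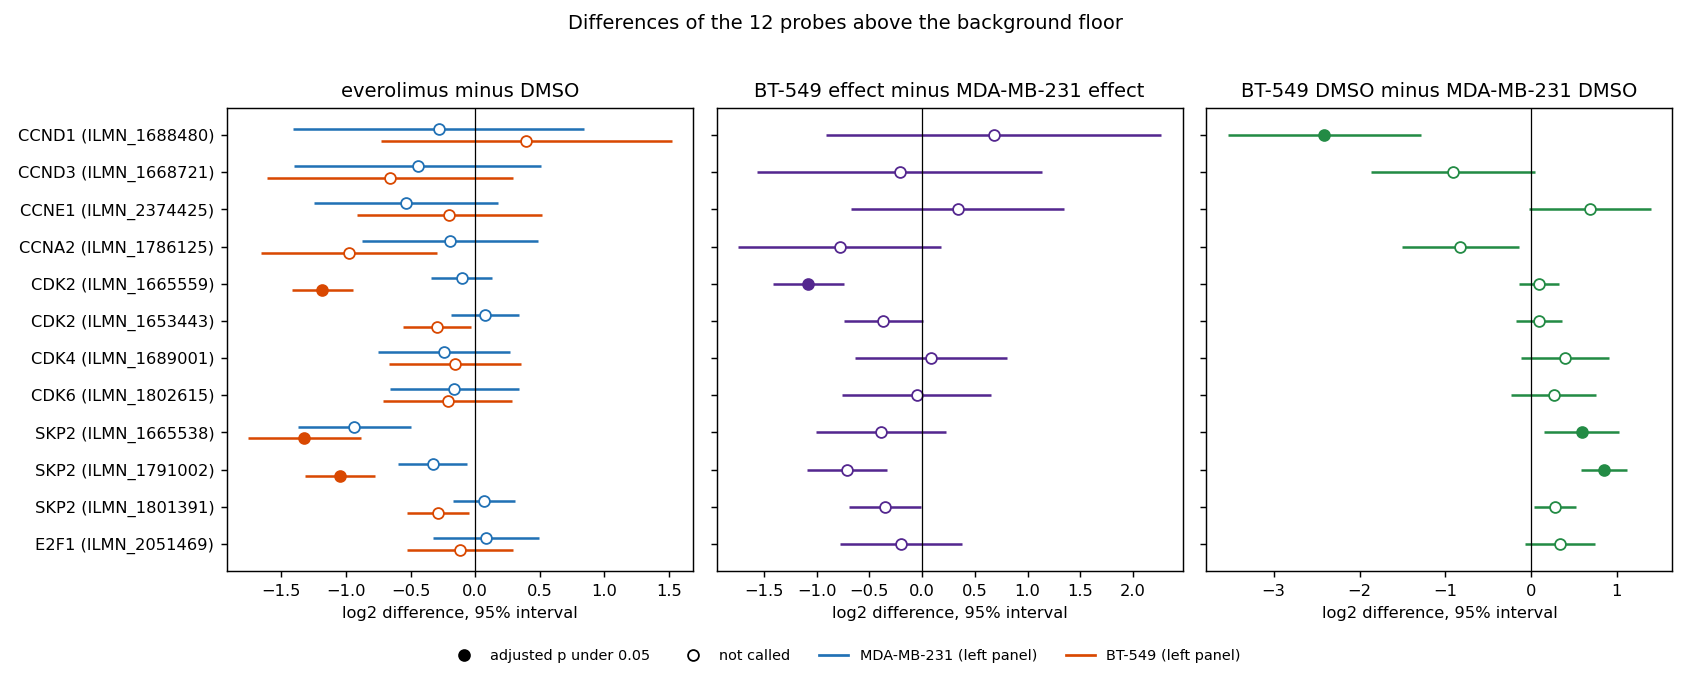
Log2 differences (horizontal axis) of the 12 tested probes (vertical axis) with their 95% intervals, for everolimus against DMSO in both lines (left), the difference between the 2 effects (middle) and BT-549 against MDA-MB-231 in DMSO (right). Filled points have an adjusted p under 0.05: in BT-549 these are CDK2 ILMN_1665559 (-1.18) and the SKP2 probes ILMN_1665538 (-1.32) and ILMN_1791002 (-1.05), and in MDA-MB-231 there is none.

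Counted over the 12 tested probes, limma called 0 in MDA-MB-231, beside 0.103% of all 15583 probes there (0.0642% higher and 0.0385% lower). At an unadjusted p under 0.05 it had 2 of the 12 there, beside 10.5% of all probes. In BT-549 it called 3, all lower, beside 17% of all probes, 8.47% higher and 8.57% lower. A share of 3 in 12 is not far from that background. For the effect averaged over both lines it also called 3 lower, the same probes of SKP2 and CDK2, beside 11.9% of all probes (5.76% higher, 6.18% lower). For the difference between the lines it called 1, lower in BT-549, beside 0.77% of all probes (0.295% higher, 0.475% lower). The contrasts share arrays and are not independent of each other.

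Every everolimus array lay below every DMSO array for 4 of the 12 probes in MDA-MB-231 (SKP2 on 2 probes, CCND3 and CCNE1), beside 9.61% of all probes. In BT-549 this held for 6 of 12 (3 SKP2 probes, both CDK2 probes and CCNA2), beside 16.6%, and in both lines for 2, both of SKP2, beside 3%. Some of these orders lie at background. The nearest arrays were both under the floor for SKP2 ILMN_1801391 in BT-549 (6.67 in DMSO, 6.63 in everolimus). The same held for SKP2 ILMN_1791002 in MDA-MB-231 (6.76 and 6.67). For CDK2 ILMN_1653443 all BT-549 everolimus arrays were under it. The reverse order occurred for 0 of 12 in either line, beside 8.56% of all probes for MDA-MB-231 and 16.7% for BT-549. The median difference of the 12 was -0.22 for MDA-MB-231 and -0.29 for BT-549, against -0.0033 and 0.0067 over all tested probes. Of the 12, 9 lay below 0 for the former and 11 for the latter. Of the 12 probes 3 belong to SKP2 and 2 to CDK2, so they are not separate genes. The members were also chosen with earlier results of these data known. Their counts and medians beside those of all probes are therefore a description and not a test of the set.

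**Figure D3:**
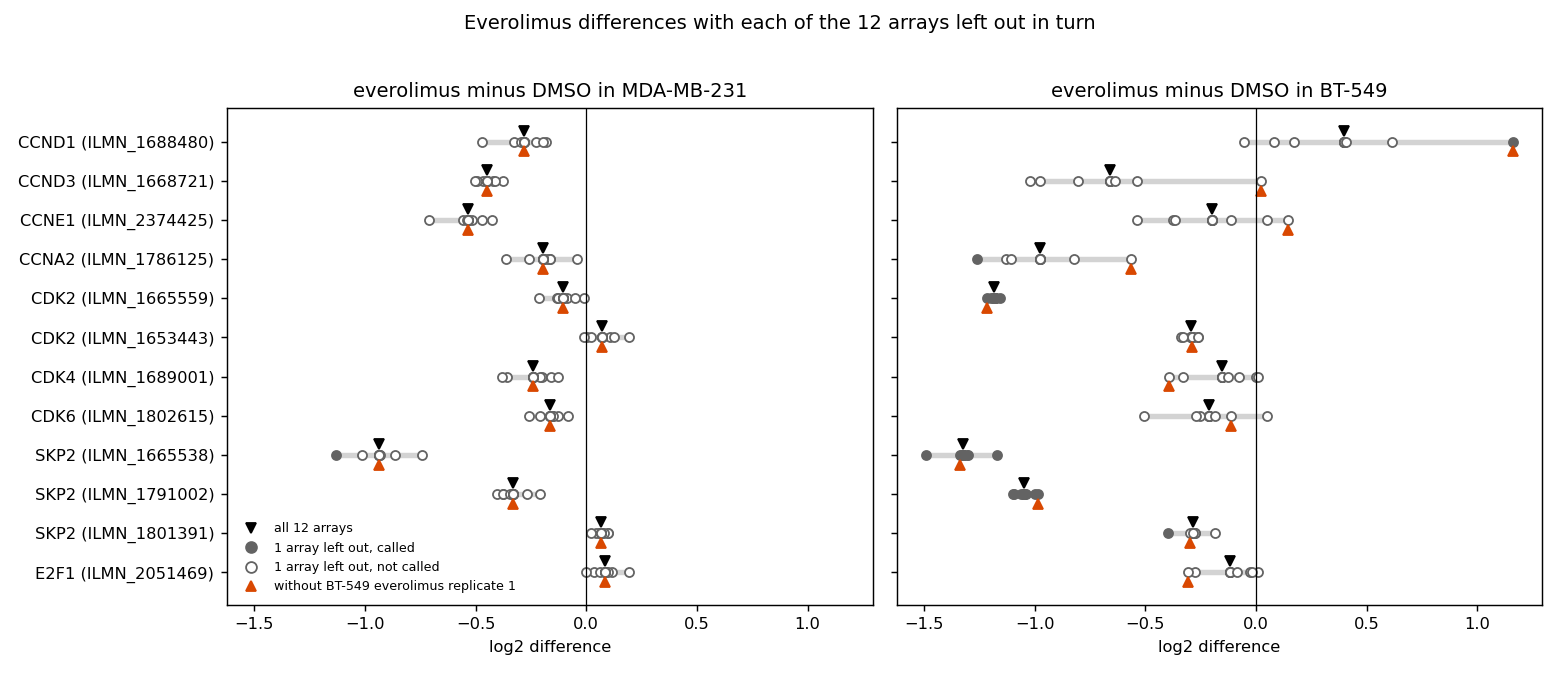
Everolimus minus DMSO differences (log2, horizontal axis) of the 12 tested probes (vertical axis) in each line, with all 12 arrays (black triangles) and with each array left out in turn (circles, filled where called). Orange triangles leave out BT-549 everolimus replicate 1, which moves CCND1 in BT-549 from 0.40 to 1.16 and CCND3 from -0.66 to 0.02, while CDK2 ILMN_1665559 stays between -1.22 and -1.16.

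Between the 2 DMSO groups, cyclin D1 had the largest difference among the 12 tested probes of these genes. CCND1 read 13.08 ± 0.10 in MDA-MB-231 DMSO and 10.66 ± 0.45 in BT-549 DMSO, 5.33-fold lower (log2 difference -2.41, 95% interval -3.54 to -1.29, adjusted p = 0.00508), called with any 1 array left out. SKP2 was higher in BT-549 on the probe ILMN_1791002 (7.76 ± 0.10 against 6.91 ± 0.21, difference 0.85, 1.80-fold, adjusted p = 0.000435), again in 12 of 12 such fits. On ILMN_1665538 SKP2 was higher by 0.59 (1.51-fold, adjusted p = 0.0455), a call kept in 4 of 12 fits. It was lost without any 1 of the 3 MDA-MB-231 DMSO arrays, MDA-MB-231 everolimus replicate 2, BT-549 DMSO replicate 2 or 3, or BT-549 everolimus replicate 2 or 3 (adjusted p = 0.0548 to 0.147). This SKP2 call was also lost with a trended and robust prior (0.0538), with no floor (0.0783) and after subtraction of the background peak (0.0788). A block of replicate numbers shared by both lines lost it as well (0.0554).

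These baseline calls are 3 of 12 member probes, 2 higher and 1 lower in BT-549, beside 28.6% of all probes (14.2% higher, 14.4% lower). The 2 DMSO groups did not overlap for the called probes. They also did not for CCND3 (difference -0.91, adjusted p = 0.142) and CCNA2 (-0.83, 0.0678), which were lower in BT-549 on every array but not called. The share of all probes without overlap between the DMSO groups was not counted. CCND3 was called without BT-549 everolimus replicate 1 (adjusted p = 0.000502), and CCNA2 without BT-549 everolimus replicate 1 (0.00668) or 2 (0.0457). These are 1 and 2 of 12 fits with 1 array left out. The fits without replicate 1 and without replicate 2 called 5512 and 4297 of all probes, against 4460 with all 12 arrays. CDK2 showed little baseline difference (0.09 on ILMN_1665559, 95% interval -0.14 to 0.33). CCNE1 differed by 0.69 (adjusted p = 0.139), CDK4 by 0.40 (0.229), E2F1 by 0.33 (0.207) and CDK6 by 0.26 (0.423). CCNE1 and CDK6 were called without BT-549 DMSO replicate 1 (1.02, 0.034 and 0.56, 0.0391), a fit that called 3394 of all probes.

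The partners of SKP2 in its ligase were measured too, in a list of subunits that act with or like it. Of 23 tested probes of 14 genes, 3 fell and 1 rose in BT-549, 0 were called in MDA-MB-231, and the medians were -0.17 and -0.13. Against the 17% of all probes called in BT-549 (8.57% lower, 8.47% higher) and 0.103% in MDA-MB-231, these counts are near the background. The same shares are the background of the other lists below. RBX1, the RING subunit of the SCF ligase, fell in BT-549 from 11.50 ± 0.17 to 10.74 ± 0.18 (-0.76, adjusted p = 0.0034), with -0.27 in MDA-MB-231 (0.495). CKS2, of the same family as CKS1B, the small protein that helps SKP2 bind CDKN1B, fell in BT-549 on both probes (-1.17, adjusted p = 0.00796, and -0.95, 0.0223). FBXO31, an F-box protein reported to target cyclin D1, rose in BT-549 from 7.92 ± 0.13 to 8.81 ± 0.21 (0.88, adjusted p = 0.00663) and differed by -0.04 in MDA-MB-231. FBXO4, another F-box protein with a reported role in cyclin D1 turnover, was not called in either line (0.49 at most in BT-549, adjusted p = 0.07). CDKN1B, the substrate that SKP2 is best known for, falls outside the naming rule and was looked up after its values were seen. Its RNA was not called in BT-549 (-0.96, adjusted p = 0.118, and -0.07, 0.9) or MDA-MB-231 (0.53, 0.743, and 0.43, 0.677).

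Among CDK inhibitors, 10 tested probes of 6 genes, 1 rose and 2 fell in BT-549, beside 8.47% and 8.57% of all probes, and 0 were called in MDA-MB-231, beside 0.103% (medians -0.26 and 0.25). CDKN1C, an inhibitor of the CDKN1B family, rose in BT-549 by 0.54 (adjusted p = 0.0208) and by 0.49 averaged over the lines (0.00942). Both CDKN2A probes above the floor fell in BT-549 (-1.85, adjusted p = 0.00467, and -1.20, 0.0131). CDKN2A encodes an inhibitor of CDK4 and CDK6. CDKN2D (1.53 in BT-549, adjusted p = 0.1) and CDKN1A (1.16, 0.359, and 0.33, 0.0969) were not called.

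Enzymes that activate or restrain CDKs, 13 tested probes of 8 genes, gave 1 rise and 1 fall in BT-549, near the background of 17%, and 0 calls in MDA-MB-231. CDK7, the kinase that activates other CDKs, rose in BT-549 from 9.75 ± 0.02 to 11.56 ± 0.52 (1.81, adjusted p = 0.00282). It was 1.01 higher in MDA-MB-231 (0.197) and rose by 1.41 averaged over the lines (0.00233). CDC25C, a phosphatase that acts on CDK1, fell in BT-549 on 1 of 3 probes (-0.53, adjusted p = 0.0191, with 0.25 and -0.12 on the others). CDC25A (-0.36 and -0.33), WEE1 (0.83, adjusted p = 0.0549) and MNAT1 (-0.18) were not called in BT-549.

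For the classical E2F targets of S phase, 21 tested probes of 17 genes, 3 fell and 1 rose in BT-549, near the 17% of all probes, and 0 were called in MDA-MB-231, beside 0.103% (medians -0.29 and -0.12). RRM2, a subunit of ribonucleotide reductase, fell in BT-549 from 8.20 ± 0.59 to 6.93 ± 0.11 (-1.27, adjusted p = 0.0103), against -0.05 in MDA-MB-231. Of the replicative helicase, MCM4 fell on 1 probe (-1.04, adjusted p = 0.0221) and not on the other (-0.37, 0.437), and MCM6 fell by 0.61 (0.0394). CDT1, which loads that helicase, rose by 1.11 (adjusted p = 0.0395).

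Of the retinoblastoma family and E2F partners, 13 tested probes of 11 genes, 2 fell in BT-549. E2F4, a mostly repressive E2F, fell by 0.45 (adjusted p = 0.0199), and TFDP1, the dimer partner of E2F proteins, fell on 1 of its probes by 0.84 (0.0323) and gave -0.60 on the other (0.125). E2F6 was not called (-0.24, adjusted p = 0.314). Of other cyclins and CDKs, 11 tested probes of 7 genes, CDK1, the mitotic kinase, fell on 1 probe (-0.98, adjusted p = 0.032) and gave -0.97 on the other (0.165). CCNC (-0.95, -0.91 and -0.03), CCNF (-0.22) and CCNA1 (0.97) were not called in BT-549. Of the inputs to cyclin D, 12 tested probes of 8 genes, CTNNB1 fell on 1 of 3 probes in BT-549 (-0.48, adjusted p = 0.0272). Averaged over the lines MYC rose on 1 of 2 probes (0.71, adjusted p = 0.0371), GSK3B fell by 0.36 (0.00862) and EIF4E, the cap-binding factor, fell on 1 of 2 probes by 0.40 (0.00624). In MDA-MB-231 limma called 0 probes of any of the 7 lists.

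**Figure D4:**
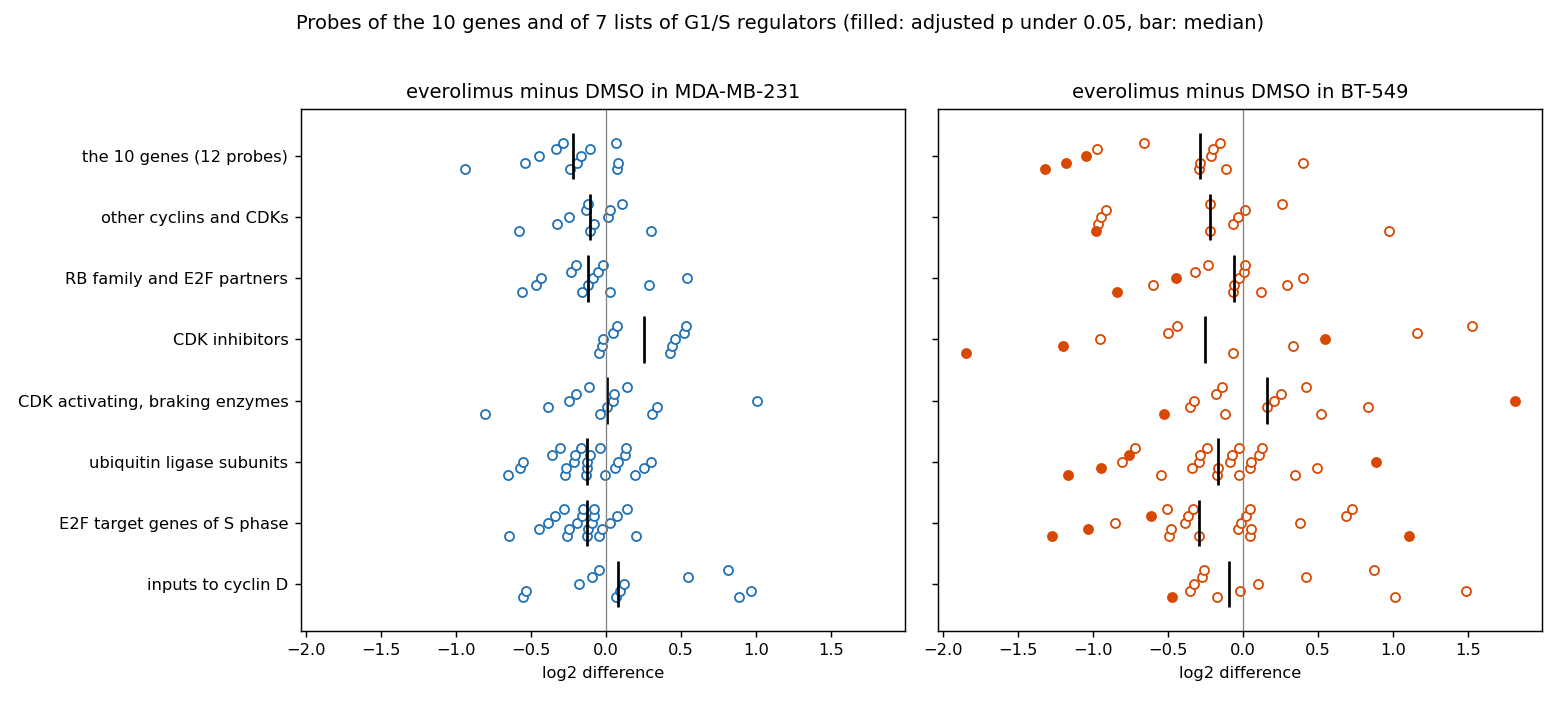
Everolimus minus DMSO differences (log2, horizontal axis) of the tested probes of the 10 genes and of 7 lists of G1/S regulators (vertical axis) in both lines, on the same scale. Each point is a probe, filled where its adjusted p is under 0.05, bars are list medians, and in MDA-MB-231 no point is filled.

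The lines carried their known marks. CDKN2A, deleted in MDA-MB-231, was under the floor on all 6 arrays of that line on all 3 probes and read 12.01 ± 0.48 and 10.80 ± 0.70 on 2 of them in BT-549 DMSO. RB1, the retinoblastoma gene that BT-549 is known to lack, lay under the floor on all 6 BT-549 arrays (ILMN_1696591, 6.55 ± 0.09 in DMSO) and read 6.96 ± 0.20 in MDA-MB-231 DMSO. Receptor genes of the other breast cancer classes, ESR1 and PGR, lay at background apart from 1 PGR array at 6.81, and 1 of 3 ERBB2 probes was above the floor (8.33 ± 0.11 and 8.75 ± 0.32 in DMSO). VIM, a mesenchymal filament, read 13.73 to 14.32 on its brighter probe as group means.

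Markers of other cell types were read beside the SKP2 and CDK2 results in BT-549. Of the luminal epithelial list 7 of 8 probes passed the floor over the 12 arrays. In BT-549, 2 of the 8 rose above it on any DMSO array and 6 on any everolimus array. The list's summed linear signal, background included, was 884 to 1063 in BT-549 DMSO and 852 to 965 in everolimus. GATA3 of this list fell (-0.87, adjusted p = 0.009) and CDH1 was at background. Of the endothelial list 1 of 3 probes passed (VWF, 1.11, adjusted p = 0.0723), CDH5 was at background, and the sum was 284 to 300 in DMSO and 272 to 510 in everolimus. Of 5 leukocyte probes 0 passed the floor, and 1 rose above it on 1 BT-549 everolimus array (PTPRC, 6.88). Their sum was 453 to 470.0 in BT-549 DMSO and 457 to 473 in everolimus. AXL, on the list of mesenchymal breast line genes, rose in BT-549 on both probes (1.80, adjusted p = 0.00483, and 1.42, 0.0174), as did CD44 on 1 of 2 (0.64, 0.0458). The part of these differences in the SKP2 and CDK2 results was not tested.

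For the 9 members whose brightest probe lay above the floor on every array, the genes most alike over the 12 arrays were found by the root mean square difference of log2 signals after each probe's own mean was taken off, among 11763 other genes. The nearest to SKP2 were L3HYPDH (0.246) and LSM10 (0.249), against an SD of SKP2 itself of 0.644. For CDK2 they were CHCHD1 (0.168) and SKIC8 (0.173), and for CCND1 STAMBPL1 (0.224) and CCNO (0.351). DNAJC9 (0.260) and RAD51AP1 (0.271) came nearest to CCND3, CHAF1B (0.206) and MCM4 (0.216) to CCNE1, and KIF23 (0.237) and COX17 (0.243) to CCNA2. CDK4 lay nearest to ARLN (0.142) and MSL3 (0.143), CDK6 to QTRT2 (0.116) and NFKBIB (0.133), and E2F1 to HDHD3 (0.0871) and WASH2P (0.106). These values describe likeness over 12 arrays that share their groups and carry no test.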

How the data were processed

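The deposited table holds log2 signals that the authors had quantile normalized between the 12 arrays, as read from its equal column quantiles (to 0.01). Log base 2 is inferred from the range of values (6.24 to 14.56). Background was not brought to 0, which compresses differences of dim probes, and a change common to all genes cannot be seen after quantile normalization. Per the labels' protocols, total RNA was amplified and stained with streptavidin-Cy3. The software used is not given in the sources used here. A second table of unnormalized signals has 12 columns that match no sample label and was not used.

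Probes were named from the platform annotation (GRCh38.p14 names), which gives 30113 of 47230 probes 1 symbol. The floor, 6.77, is the background peak (6.55) plus 3 SDs of 0.0724, and probes above it on 3 of 12 arrays were tested (15583 probes of 11764 genes). limma 3.58.1 (R 4.3.3) fitted 4 group means to all 12 arrays (8 residual degrees of freedom), with 2-sided tests and Benjamini-Hochberg adjustment over all tested probes of a contrast. A probe under the floor on every array of a group has only a bound there, the other group's mean over the mean of the higher of floor and signal. Such a bound concerns the means and does not allow for the spread between arrays. Alternatives were another floor, 1 probe per gene, background subtraction, equal medians, a trended and robust prior, array weights, each line's own 6 arrays, the replicate block, each array left out and all replicate 1 arrays left out. The limma fit was also run on simulated data, with noise independent between arrays and equally wide on all of them. That simulation does not cover the shared and unequal deviations of the arrays used here.

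All probes of the 10 genes are given. A gene of a list is named if called between everolimus and DMSO or among the 4 with the smallest p averaged over the lines, and RB1 and CDKN2A are named as checks of the lines. The members, lists and floor were chosen with earlier results of these data known.

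In MDA-MB-231 arrays with the same replicate number deviated together from the mean of their group (r = 0.727, 0.526 and 0.428 across probes, all over 0.1). The replicate block was tried on that ground. DMSO replicate 2 and everolimus replicate 3 correlated as well (0.538), so the pairing of numbers 2 and 3 is not shown, and the labels state none. In BT-549 the values were 0.494, 0.075 and 0.406, so its numbers are less clearly pairs. The block fit still had replicate terms within each line, BT-549 included. Its results for BT-549, for the averaged effect and for the difference between lines therefore rest on that pairing. For the 2 lines compared in DMSO, the replicate numbers formed blocks shared by both lines, a pairing that was not checked.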

Additional observations from a re-analysis of the deposited data

Results flagged for a closer look

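The everolimus effects on CDK2 (ILMN_1665559) differed between the lines in limma's test of the difference itself, at -1.08 log2 (BT-549 minus MDA-MB-231, SE 0.15, adjusted p = 0.0219). All 3 BT-549 everolimus arrays lay below all 3 DMSO arrays, with a difference of -1.18, and the MDA-MB-231 groups overlapped, at -0.10. With 1 array left out the adjusted p ranged from 0.00358 to 0.0959. The dim second CDK2 probe gave a difference between lines of -0.37 (adjusted p = 0.309). With 3 arrays a group, single arrays were not tested as outliers.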

How the results depend on the processing

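Calls moved with the settings, and so did the sizes of CCND1, CCND3 and CCNE1 in BT-549. With all 12 arrays limma called 0, 3, 3, 1 and 3 of the 12 member probes (in MDA-MB-231, in BT-549, averaged, for the difference between lines, and between the lines in DMSO). Over all 15583 tested probes it called 16, 2656, 1861, 120 and 4460. Without 1 array the member counts ranged from 0 to 1, 3 to 4, 3 to 3, 0 to 3 and 2 to 5. Those of all probes ranged from 0 to 140, 1090 to 4338, 1009 to 3389, 0 to 1681 and 3100 to 5512. Without the 4 replicate 1 arrays the member counts were 3, 5, 6, 3 and 7, beside 976, 5938, 4919, 3173 and 6702 of all probes. Array weights gave 1, 9, 7, 5 and 10, beside 1261, 7896, 6200, 4733 and 8336 of all probes. With the background peak subtracted and with a trended and robust prior the member counts were 5 in BT-549 and 0 for the difference. Of all probes these fits called 2644 and 2650 in BT-549, and 8 and 32 for the difference. The replicate block gave 1, 4, 5, 2 and 3, beside 178, 4447, 3593, 1148 and 5359 of all probes. The block within each line also called CCNA2 in BT-549 (adjusted p = 0.00961) and averaged (0.0213). It called CCNE1 averaged (0.02) and SKP2 ILMN_1791002 for the difference (0.0219) too. At baseline the blocks were shared by both lines, a pairing that was not checked. That fit called CCNE1 (0.0249) and lost SKP2 ILMN_1665538 (0.0554). Apart from SKP2 ILMN_1665538 in MDA-MB-231, no other member call changed. With 1 probe per gene, no floor, the stricter floor, equal medians and each line's own 6 arrays the member counts stayed within 1 of the first set. The counts over all tested probes moved by over 1.5 times: limma called 16 in MDA-MB-231, 178 with the replicate block, 1261 with array weights, 0 with the background peak subtracted (1461 at an unadjusted p under 0.05) and 976 without the 4 replicate 1 arrays.

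The signs that changed were those of probes not called with all 12 arrays. With 1 array left out the ranges that crossed 0 were, in MDA-MB-231, CDK2 (ILMN_1653443) from -0.01 to 0.19 and E2F1 from -0.0033 to 0.19. In BT-549 the ranges were CCND1 from -0.053 to 1.16, CCND3 from -1.02 to 0.022, CCNE1 from -0.54 to 0.14, CDK4 from -0.39 to 0.0083, CDK6 from -0.50 to 0.05 and E2F1 from -0.31 to 0.01. For the effect averaged over the lines they were CCND1 from -0.17 to 0.44 and E2F1 from -0.11 to 0.047. For the difference between the lines they were CCND3 from -0.58 to 0.47, CCNE1 from -0.0017 to 0.68, CDK4 from -0.15 to 0.25 and CDK6 from -0.34 to 0.21. Between the lines in DMSO the range was, for CDK2 (ILMN_1665559), from -0.015 to 0.18. For the difference between the lines CCND3 was also 0.32 with array weights and 0.31 without the 4 replicate 1 arrays, CDK4 was -0.10 and CDK6 0.036 with array weights. The cause was not tested. Probes near the floor (SKP2 ILMN_1801391 and CDK2 ILMN_1653443) give bounds at best.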
